A study of Mus musculus with 12 samples.

Results

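RNA from 6 of the 12 libraries of the series is described here: the 3 libraries of MC3T3 sc4 cells held for 6 days with 5 µM GSK126 and the 3 held for 1 day with it, matched by dose of bone morphogenetic protein 2 (BMP2) at 0, 10 and 50 ng/ml. They were chosen by their labels alone. MC3T3 sc4 is a clonal line of mouse calvarial pre-osteoblasts (C57BL/6 per the labels, passage 12), so all libraries come from 1 line. All 6 cultures also received osteogenic medium, which holds ascorbic acid and β-glycerol phosphate, and medium and agents were renewed once, on the third day after the start. Each condition has 1 library, with 90932122 to 113744802 counts. The other 6 libraries, with the same days and BMP2 doses but no GSK126, supplied part of the spread for the tests and a comparison of the day effect. Where 3 values are given together, they are those of 0, 10 and 50 ng/ml BMP2, in that order.

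GSK126 inhibits EZH2, the subunit of Polycomb repressive complex 2 (PRC2) that methylates lysine 27 of histone H3, a mark of silenced chromatin. Osteoblasts mature in stages: a dividing precursor leaves the cell cycle under RUNX2 and SP7, lays down type I collagen, then makes alkaline phosphatase and other enzymes that free phosphate for mineral, and finally acidic bone proteins such as bone sialoprotein and osteocalcin. Some cells go on to become osteocytes, which make DMP1, PHEX and sclerostin. The comparison asks how far these stages advanced between day 1 and day 6 while EZH2 was inhibited.

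Of 12056 genes tested, 4411 (36.6%) were called higher and 4120 (34.2%) lower on day 6 with GSK126, at an adjusted p of at most 0.05 (quasi-likelihood test of edgeR, Benjamini-Hochberg over all genes). At a fitted change of at least 2-fold, 1080 (8.96%) were higher and 1087 (9.02%) lower. The days differed at most genes, and each gene list below is to be read against these shares. Of the 8531 called, 7688 had day 1 and day 6 groups that did not overlap, against 8282 of all 12056 tested (68.7%). The same libraries gave the calls, so a higher share among called genes was likely. With scaling by library size alone in place of TMM (the trimmed mean of M-values, which evens out library composition), the median change over all genes fell by 0.206 on the log2 scale and the calls were 2800 higher and 5581 lower. Changes below are given on the TMM scale, as fitted log2 changes averaged over the 3 BMP2 doses with their standard errors. No condition has a replicate, so the p-values rest on what the fit of day, GSK126 and dose leaves unexplained between libraries. That remainder holds any departure from additive effects of GSK126 and BMP2 dose within a day. It also holds noise, which may be technical, as the labels do not say that the cultures were separate.

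Genes of the osteoblast lineage were present in all 6 libraries. Levels are given in CPM, counts scaled to the library total after its adjustment by TMM. Col1a1, which encodes the main chain of type I collagen, stood at 18840, 19740 and 22690 CPM on day 1 and 35910, 47000 and 75090 on day 6, and Runx2 at 95.2, 105 and 115 and then 333, 374 and 429. Both genes were higher in each day 6 library than in any of day 1. Few markers of other cell types passed the filter on low counts: 3 of 12 adipocyte, 3 of 17 leukocyte, 1 of 10 endothelial, 1 of 10 epithelial and 2 of 10 skeletal muscle markers. Adipocyte markers summed to 15.8–17.1 CPM on day 1 and 10.3–11.4 on day 6, and leukocyte markers to 8.89–9.75 and then 15.1–17.6. Of the 3 leukocyte markers tested, Lyz2 was called higher, from 1.19, 1.28 and 1.11 to 12.6, 12.4 and 8.78 CPM, and Cd14 and Csf1r lower, by 0.80 ± 0.11 and 0.66 ± 0.22 on the log2 scale. The call of Csf1r was lost under 6 of 21 alternatives. Endothelial markers, mostly Vwf (85.7%), summed to 2.03–2.14 CPM on day 1 and 3.45–15.4 on day 6. Epithelial markers, mostly Krt14 (93.6%), went from 8.2–13.2 to 0.89–5.59 CPM, and muscle markers, mostly Des (75.8%), from 4.07–4.57 to 5.87–11.6. The leukocyte antigen gene Ptprc had at most 4 read pairs (2 counts each) in a library, the endothelial cadherin gene Cdh5 at most 2, and the adipokine gene Lep had 0. Chondrocyte markers were more abundant: 9 of 17 were tested, and their summed level was 2790 to 4270 CPM on day 1 and 530 to 1490 on day 6, and Col2a1, the cartilage type II collagen, made up 90.9% of it. While this sum fell, 6 of the 9 markers were called higher, 4 of them at least 2-fold, and Col2a1 and Sox9 lower, both at least 2-fold. Hapln1, a link protein of cartilage matrix, rose from 0.85, 2.04 and 2.25 to 14.4, 28.9 and 28.8 CPM. The proteoglycan gene of cartilage, Acan, had 0 pairs in 5 libraries and 2 in the other. Neural markers summed to 54.6 to 90.9 CPM on day 1 and 51.4 to 66.1 on day 6, most of it the tubulin gene Tubb3 (79.1%). The part of such cells in the results below was not tested. The ribosomal RNA precursor Rn45s also moved with day, from 8.96% to 9.78% of counts on day 1 to 13.1% to 14.47% on day 6, and without it 8530 genes were called.

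Promoter sequences of 5 members are shown first, because 5 groups of genes moved between the days and each has a well-known regulatory motif. They are Bglap, the osteocalcin gene; Cdc6, which licenses replication origins; Ccnb2, a mitotic cyclin; Atf3, a stress-induced transcription factor; and Hmgcs1, an early enzyme of cholesterol synthesis. Each is, in its list, the gene with the largest fitted change among those with a match before the start. The 250 bases before each gene's start are printed 5′ to 3′ (RefSeq, GRCm38.p6, the build of mm10), with the motif or its reverse complement in capitals: RUNX TGTGGT, E2F TTTCCCGC or TTTGGCGC, the cell cycle homology region TTTGAA, ATF4 TGATGCAA, and the sterol regulatory element TCACCCCAC.
Bglap, chr3:88384467-88384716, minus strand: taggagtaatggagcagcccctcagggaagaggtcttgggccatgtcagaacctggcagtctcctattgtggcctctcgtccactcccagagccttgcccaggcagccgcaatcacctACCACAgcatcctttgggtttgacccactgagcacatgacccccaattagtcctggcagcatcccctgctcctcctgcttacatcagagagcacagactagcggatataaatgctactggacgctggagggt
Cdc6, chr11:98907901-98908150, plus strand: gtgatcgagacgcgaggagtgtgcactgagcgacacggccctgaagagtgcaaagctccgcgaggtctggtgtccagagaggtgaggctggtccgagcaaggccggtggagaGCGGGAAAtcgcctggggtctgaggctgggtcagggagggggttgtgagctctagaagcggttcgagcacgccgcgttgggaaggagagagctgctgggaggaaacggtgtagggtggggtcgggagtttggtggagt
Ccnb2, chr9:70421555-70421804, minus strand: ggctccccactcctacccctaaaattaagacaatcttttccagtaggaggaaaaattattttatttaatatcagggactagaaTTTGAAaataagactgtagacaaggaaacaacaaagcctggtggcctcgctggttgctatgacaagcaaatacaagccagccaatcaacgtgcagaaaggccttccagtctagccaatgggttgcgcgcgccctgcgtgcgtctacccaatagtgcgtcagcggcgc
Atf3, chr1:191183334-191183583, minus strand: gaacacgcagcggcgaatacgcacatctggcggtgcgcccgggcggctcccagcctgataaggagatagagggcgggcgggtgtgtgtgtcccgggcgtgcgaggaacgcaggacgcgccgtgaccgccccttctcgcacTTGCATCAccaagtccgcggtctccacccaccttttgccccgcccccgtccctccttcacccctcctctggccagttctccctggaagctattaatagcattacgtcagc
Hmgcs1, chr13:119690101-119690350, plus strand: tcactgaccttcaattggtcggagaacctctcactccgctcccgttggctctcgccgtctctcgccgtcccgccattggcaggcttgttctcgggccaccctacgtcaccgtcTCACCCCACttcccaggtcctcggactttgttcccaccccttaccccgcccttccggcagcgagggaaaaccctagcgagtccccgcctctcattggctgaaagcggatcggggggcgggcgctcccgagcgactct

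Motif shares were counted per promoter, over both strands and over the 300 bases from 250 before to 50 after the start. The cell cycle homology region was held by 16 of 22 promoters of the mitosis list (72.7%), 12.0% of the promoters of all genes tested and 17.9% of all promoters. The E2F motif was held by 9 of 30 promoters of the S phase list (30.0%) and 2.93% of those of genes tested. ATF4's motif was held by 5 of 20 promoters of the stress list (25.0%, against 0.562%): those of Atf3, Chac1, Herpud1, Slc7a11 and Vldlr. The RUNX motif was held by 4 of 14 promoters of the bone matrix list (28.6%, against 12.3%), those of Bglap, Dmp1, Sparc and Spp1. The sterol motif was held by 1 of 19 of the cholesterol list (5.26%, against 0.545%). Motifs also occurred outside these lists. ATF4's motif was held by 2 of 14 bone matrix promoters (14.3%). Of 11 promoters of mineralization enzymes and transporters, 1 held the sterol motif (9.09%) and 2 the RUNX motif (18.2%). The ATF4 and sterol motifs were held by 0 promoters of the S phase and mitosis lists. Over all genes called at least 2-fold lower, 19.8% of promoters held the cell cycle homology region and 5.39% the E2F motif, and over those called at least 2-fold higher, 11.1% and 1.38%. Over the same genes, ATF4's motif was held by 0.548% of promoters of the lower and 1.66% of the higher, the RUNX motif by 13.0% and 11.8%, and the sterol motif by 0.366% and 0.736%. Promoters were found for 10 of 15 bone matrix, 23 of 29 S phase, 21 of 25 mitosis, 18 of 19 stress and 16 of 23 cholesterol genes tested. No motif searched contains another. A match describes letters in a window and not binding, and no match says only that the letters are not in this window.

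**Figure D1:**
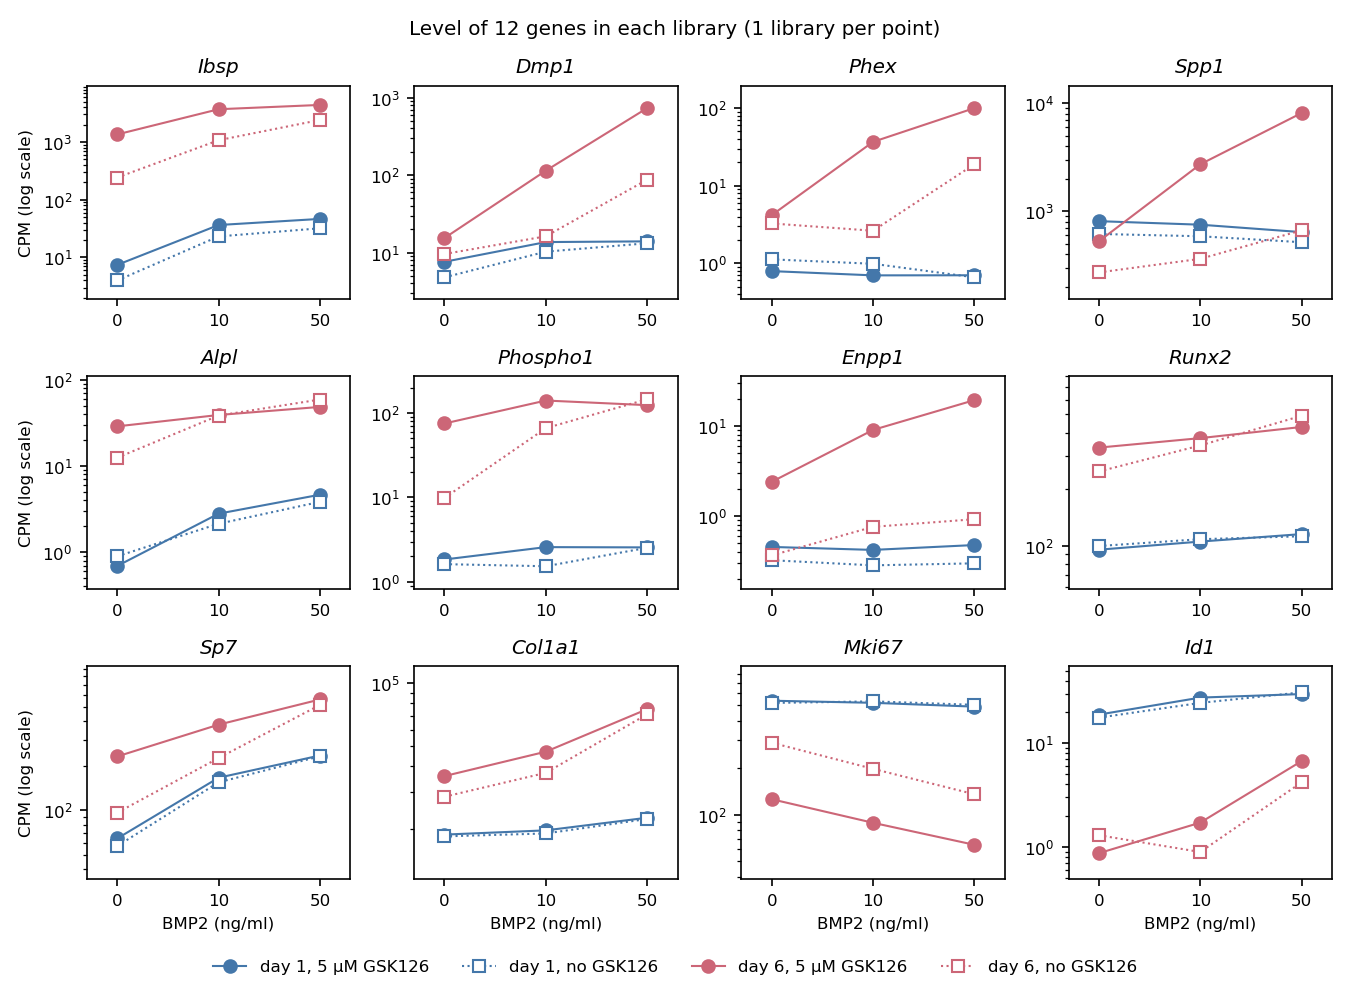
Level of 12 genes in each library, in CPM on a log axis, against BMP2 dose. Filled circles are libraries with GSK126, open squares those without, blue is day 1 and red is day 6, and lines join the doses of 1 day and treatment. With GSK126 all 3 day 6 points lie above all 3 day 1 points for Ibsp, Dmp1, Phex, Alpl, Phospho1, Enpp1, Runx2 and Col1a1, and below them for Mki67 and Id1, while the days overlap for Spp1 and Sp7.

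Genes of mineralized bone matrix rose. Of 15 tested, 13 were called higher and 1 lower, and 11 were at least 2-fold higher, with a median change of 1.75 against 0.03 over all genes. Ibsp, bone sialoprotein (chromosome 5, 104299287 to 104311472 in mm10), stood at 7.43, 36.4 and 46.5 CPM on day 1 and 1354, 3697 and 4388 on day 6. Its lowest day 6 level lay far above its highest day 1 level, and it rose by 6.95 ± 0.34 (adjusted p = 4.14e-06). Per length, its day 6 level was 538, 1434 and 1621 RPKM, the deposited count scaled by gene length and library size, against 5937, 7586 and 11540 RPKM for Col1a1. In bulk RNA, a larger share of cells with a transcript and more of it per cell cannot be told apart, here or for the genes below.

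Osteocalcin transcripts were at or near the floor of detection on day 1 and present in each day 6 library. Bglap (chromosome 3, 88383495 to 88384464) had 0, 4 and 13 read pairs on day 1 and 2850, 11372 and 23325 on day 6, and its near-identical neighbour Bglap2 had 0, 3 and 3 and then 989, 3866 and 6117. Counts this low on day 1 give no usable fold, and reads shared by the copies could be split by the authors' counting, so both are best read together. Both rose (adjusted p = 8.76e-06 for Bglap and 3.88e-05 for Bglap2), and their day 6 counts were higher with more BMP2.

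The acidic phosphoprotein genes Dmp1 and Spp1 differed widely by BMP2 dose on day 6. Dmp1, made by late osteoblasts and osteocytes, stood at 7.59, 13.6 and 13.9 CPM on day 1 and 15.4, 114 and 732 on day 6, and rose by 3.38 ± 0.45 (adjusted p = 0.000432). Spp1, osteopontin, stood at 811, 752 and 642 CPM and then at 529, 2722 and 8114. Without BMP2 it was lower on day 6 than on day 1, and with either dose it was higher, so the groups overlapped. Its mean change of 1.75 ± 0.44 passed the test (adjusted p = 0.00917), but not with BMP2 dose as a block (adjusted p = 0.181), with no dose term (0.0553) or without the 10 ng/ml day 6 GSK126 library (0.0616).

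The collagenous part of the matrix moved less in ratio. Col1a1 rose by 1.30 ± 0.10 (adjusted p = 3.16e-05), Col1a2, its partner chain, by 0.89 ± 0.10, and Sparc, osteonectin, by 1.59 ± 0.12. The small proteoglycans split: Omd, osteomodulin, rose by 6.04 ± 0.36 and Dcn, decorin, by 3.88 ± 0.12, while Bgn, biglycan, fell by 0.42 ± 0.10 and was the 1 member called lower. Mgp, which restrains calcification, did not pass, at -0.09. Mepe and Dspp were below the filter on low counts.

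Among enzymes and transporters of mineralization, 6 of 10 were called higher and 3 lower, 5 and 1 of them at least 2-fold. Over all genes the shares were 36.6% and 34.2%, with 8.96% and 9.02% at least 2-fold. Alpl, alkaline phosphatase, which frees phosphate from pyrophosphate, stood at 0.692, 2.8 and 4.65 CPM on day 1 and 29, 39.3 and 48.7 on day 6 and rose by 4.17 ± 0.31 (adjusted p = 2.81e-05). Phospho1, which frees phosphate inside matrix vesicles, went from 1.84, 2.58 and 2.56 to 75.3, 141 and 124 CPM, and Smpd3, the sphingomyelinase needed for normal bone mineral, from 17.6, 16.5 and 13.4 to 402, 719 and 589.9. Both were low on day 1 at every dose and high on day 6 at every dose, and rose by 5.69 ± 0.62 and 5.31 ± 0.70. Enpp1, which makes the mineral inhibitor pyrophosphate, rose as well, from 0.455, 0.421 and 0.477 to 2.4, 9.06 and 19.4 CPM. The sodium-calcium exchangers went opposite ways: Slc8a3 rose from 16, 16 and 10 read pairs to 2472, 7448 and 7629, while Slc8a1 fell by 3.65 ± 0.17. The phosphate carriers Slc20a1 and Slc20a2 fell by 0.59 ± 0.07 and 0.48 ± 0.08.

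Osteocyte genes rose in part. Of 9 tested, 4 were called higher, all at least 2-fold, and 3 lower. Over all genes 36.6% were higher, 8.96% at least 2-fold, and 34.2% lower, and the median change of the list was 0.24. Ostn, osteocrin, a secreted peptide of bone that binds the natriuretic clearance receptor, had 0 read pairs in each day 1 library and 1246, 1498 and 1791 on day 6. Against a floor of 3 pairs per library it was at least 468, 614 and 823 times higher. Leaving out any 1 of the 3 day 1 GSK126 libraries ended its call (adjusted p = 1). Npr3, which encodes that clearance receptor, went the other way, from 224, 181 and 161 CPM to 12.1, 7.63 and 4.86, a fall of 4.61 ± 0.05 (adjusted p = 1.07e-07). Phex, the endopeptidase mutated in X-linked hypophosphatemia, rose from 0.791, 0.697 and 0.699 CPM to 4.16, 36.7 and 99.9 (5.25 ± 0.63, adjusted p = 0.000281), and most of the rise was in the libraries with BMP2. Fam20c, the kinase of secreted phosphoproteins, rose by 1.19 ± 0.18, a call lost with BMP2 dose as a block (adjusted p = 0.0937). Sost, sclerostin, was below the filter, with 0, 1 and 1 pairs on day 1 and 0, 5 and 104 on day 6, so that it was seen above the floor at 10 and 50 ng/ml on day 6. Tnfsf11, the osteoclast factor RANKL, had 0 pairs in all 6 libraries, and its decoy receptor gene Tnfrsf11b, osteoprotegerin, rose by 2.29 ± 0.58 (adjusted p = 0.00986).

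Transcription factors of the lineage moved in both directions: 9 of 18 were called higher and 6 lower, 5 and 2 at least 2-fold. Over all genes 36.6% were higher and 34.2% lower, 8.96% and 9.02% at least 2-fold. The median change of the list was 0.20. Runx2, needed for osteoblast commitment, rose by 1.85 ± 0.11 (adjusted p = 9.38e-06) at the levels given above. Sp7, osterix, stood at 64.5, 166 and 234 CPM on day 1 and 231, 378 and 559 on day 6. It was higher on day 6 at each dose, but its day 1 level with 50 ng/ml exceeded its day 6 level without BMP2 by a small margin. The rise of 1.45 ± 0.19 did not pass with no dose term (adjusted p = 0.0668). Dlx3, a homeobox factor that activates osteocalcin, rose from 0.83, 1.51 and 1.72 to 17.2, 22.8 and 29.1 CPM, and Mef2c, which drives Sost in osteocytes, from 12.2, 14.1 and 14 to 137, 229 and 252. Msx2 and Ets1 fell by 1.11 ± 0.12 and 1.09 ± 0.16.

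**Figure D2:**
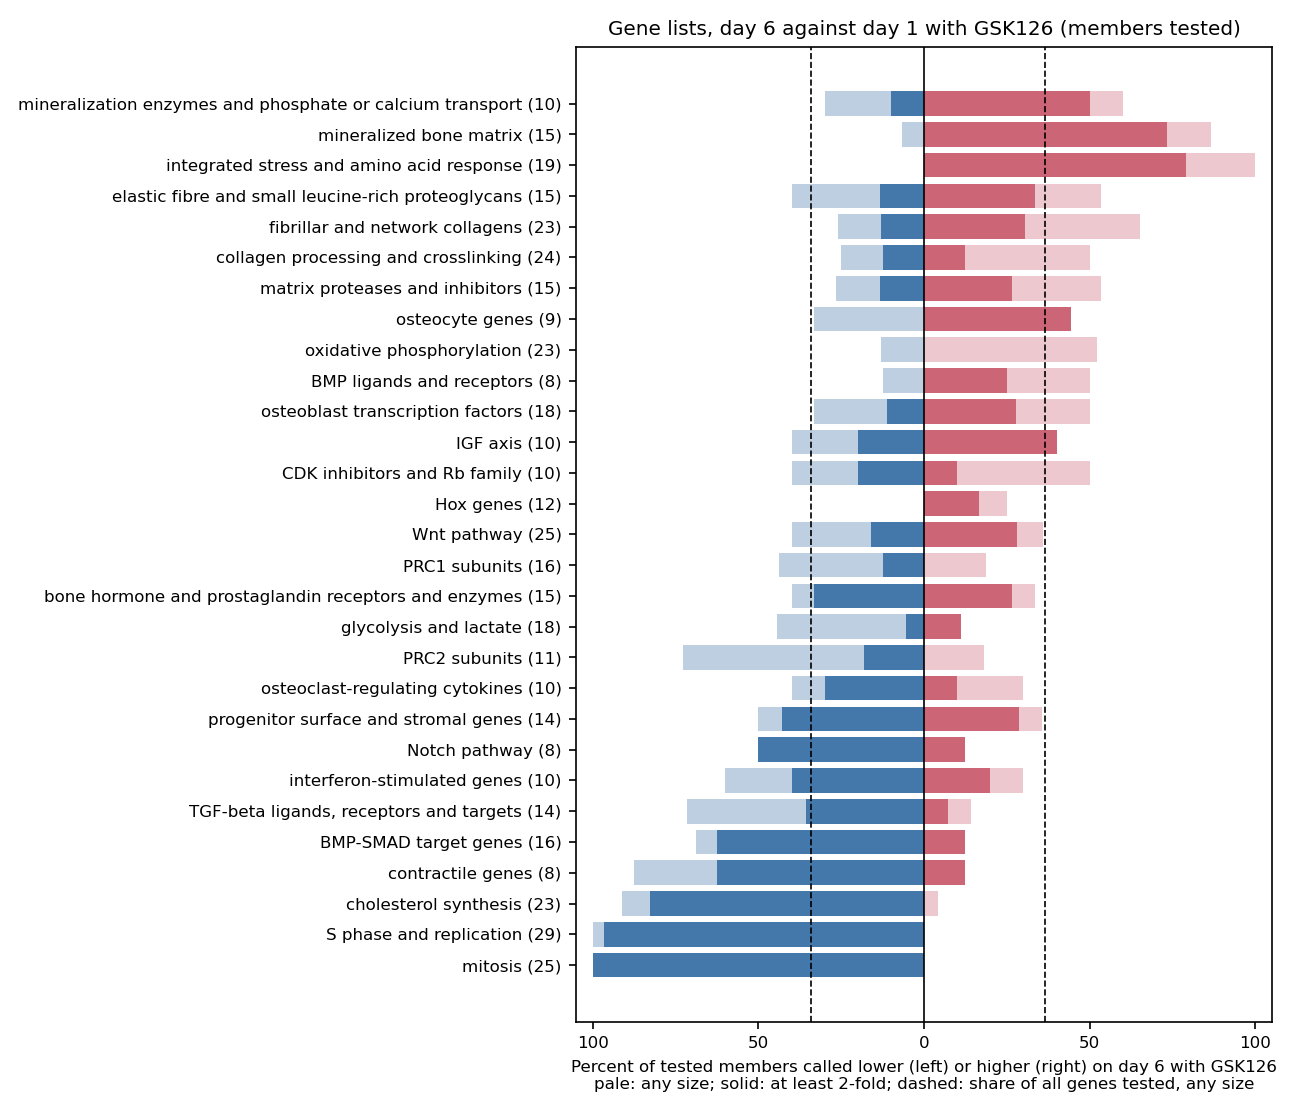
Share of the tested members of 29 gene lists called lower (left, blue) or higher (right, red) on day 6 with GSK126, in percent, pale for any size and solid for at least 2-fold, with the number tested in brackets. Dashed lines mark the 34.2% and 36.6% of all genes tested. All 25 mitosis and all 29 S phase genes were lower and all 19 stress genes higher.

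Cell division genes fell throughout. All 25 mitosis genes and all 29 S phase genes tested were called lower, 25 and 28 of them at least 2-fold, against 34.2% and 9.02% of all genes. All 25 and all 29 were called lower under each of the 22 alternatives run. Mki67, the proliferation antigen Ki-67, stood at 536, 520 and 492 CPM on day 1 and 125, 88.5 and 63.9 on day 6, and fell by 2.53 ± 0.05 (adjusted p = 1.58e-07). Day 1 levels were alike at all doses, and on day 6 they were lower with more BMP2. Aurkb, the kinase that monitors chromosome attachment, showed the same order, from 64.1, 60.9 and 59.9 to 13.3, 9.92 and 5.82 CPM, as did the cyclin Ccnb2, from 50.7, 50.2 and 46.4 to 12.6, 8.76 and 5.4, and Foxm1, the factor that activates mitotic genes, from 182, 169 and 169 to 33.3, 26.6 and 21. Among S phase genes Rrm2, a subunit of ribonucleotide reductase, fell most, from 170.5, 200.5 and 208 to 22, 19.99 and 19 CPM (3.24 ± 0.06), and Cdc6 fell from 50.1, 47.1 and 46.5 to 6.32, 6.57 and 5.56.

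A list of cell cycle inhibitors, the retinoblastoma family and D-type cyclins was mixed. Of its 10 members tested, 5 were higher and 4 lower, against 36.6% and 34.2% of all genes. Cdkn1a, which encodes p21, rose from 117, 133 and 146 CPM to 480.2, 525 and 542 (1.98 ± 0.13, adjusted p = 1.84e-05). Cdkn2d and Cdkn2c, of the INK4 family, fell by 1.27 ± 0.06 and 1.00 ± 0.15, and Rbl1, a relative of the retinoblastoma gene, by 1.69 ± 0.12. Ccnd1, cyclin D1, which drives entry into the cycle, rose by 0.43 ± 0.10, unlike the cyclins of later phases. Its call was lost with scaling by library size alone (0.22, adjusted p = 0.0793 by edgeR). Cdkn1c, which encodes p57, was below the filter, with 0, 0 and 0 read pairs on day 1 and 6, 3 and 6 on day 6.

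The target of the drug changed too. Ezh2 fell from 74.2, 77 and 77.2 CPM to 35, 33.4 and 30.5 (1.21 ± 0.06, adjusted p = 6.07e-06), and its paralogue Ezh1 rose from 20.6, 20.8 and 18.8 to 26.8, 30.7 and 36.7 (0.64 ± 0.11). The mRNA level says nothing of enzyme activity, on which GSK126 acts. Of 11 PRC2 subunit genes, 8 were called lower and 2, Ezh1 and Jarid2, higher, against 34.2% and 36.6% of all genes. Phf19, an accessory subunit that recruits the complex, fell by 1.68 ± 0.14, the largest fall of the list, and Rbbp7, a histone chaperone, by 0.91 ± 0.04. Of 16 PRC1 subunit genes, 3 were higher and 7 lower, against 36.6% and 34.2% of all genes.

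BMP signalling is read out by SMAD-responsive genes, and most of these fell: 11 of 16 were called lower, 10 at least 2-fold, and 2 higher. Id1, an inhibitor of basic helix-loop-helix factors, stood at 18.9, 27.5 and 29.8 CPM on day 1 and 0.868, 1.71 and 6.71 on day 6, a fall of 3.46 ± 0.22 (adjusted p = 1.46e-05). Id2 went from 29.8, 48.4 and 59.8 to 3.65, 6.13 and 20.4, and the feedback inhibitors Smad6 and Smad7 fell by 1.72 ± 0.15 and 1.67 ± 0.09. Within day 6, Id1 and Id2 were highest with 50 ng/ml BMP2. Id4 ran against BMP2 on both days, with 63, 36.2 and 31.8 CPM on day 1 and 10.7, 3.8 and 1.9 on day 6. Nog, the secreted BMP antagonist noggin, and Dlx3 were the 2 members that rose, by 1.92 ± 0.50 and 4.15 ± 0.36. Hey1, at 0.474, 2.45 and 3.97 CPM and then 0.089, 0.677 and 9.37, was lower on day 6 at 0 and 10 ng/ml and higher at 50, and its adjusted p of 0.049 did not hold under 13 of 22 alternatives. With no dose term, 5 of the 16 genes were called lower, and the number called higher ran from 1 to 5 over the alternatives. In the libraries with BMP2, the time since it was last added also differed between the days, by the schedule of renewal. There it cannot be told apart from day. The median log2 ratio of the list was -1.68 without BMP2, and -1.70 and -0.85 at 10 and 50 ng/ml. The part of this time in the change was not tested.

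Of 8 BMP ligand and receptor genes tested, 4 were higher and 1 lower, against 36.6% and 34.2% of all genes. Bmp4 rose from 45.6, 26.9 and 20.9 CPM to 52.4, 63.9 and 63. On day 1 it was lower with BMP2 and on day 6 it was not. Gdf6, a ligand of joints, rose from 1.21, 0.616 and 0.58 to 40.8, 8.82 and 2.32, most without BMP2. In the TGF-beta list 10 of 14 were lower and 2 higher. Ctgf, a matricellular target of TGF-beta, fell from 274, 441 and 480.1 to 22.1, 37.4 and 61.9 CPM. Tgfb1 itself rose by 1.15 ± 0.12. Contractile genes, several of which respond to TGF-beta, fell in 7 of 8 cases, Des being the exception: Acta2, smooth muscle actin, went from 1689, 1469 and 1424 to 621, 368 and 184 CPM, lower with more BMP2 on both days.

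Wnt pathway genes moved in both directions, 9 of 25 higher and 10 lower, close to the 36.6% and 34.2% of all genes. Wif1, a secreted Wnt inhibitor, rose from 0.178, 1.33 and 4.84 to 43.9, 100.4 and 112 CPM, and Tcf7, a nuclear partner of beta-catenin, from 5.47, 8.73 and 10.8 to 163, 247 and 204. The feedback genes Axin2 and Notum rose by 2.47 ± 0.19 and 3.44 ± 0.36. Lgr6, a receptor for R-spondins, fell from 65.7, 121 and 146 to 0.134, 2.45 and 29.3 CPM (5.52 ± 0.15, adjusted p = 4.07e-07). It fell at all doses, by far less with 50 ng/ml, and with no dose term the adjusted p was 0.084. Its ligand gene Rspo2 fell by 3.10 ± 0.07.

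Fibrillar and network collagens rose in 15 of 23 cases and fell in 6, with a median of 0.59. The 2 largest rises were in minor fibrillar chains: Col24a1 went from 0.455, 0.664 and 0.903 to 26, 64.6 and 56 CPM, and Col11a2, which is also on the chondrocyte list, from 2.75, 2.77 and 3.29 to 121, 309 and 196. The basement membrane chains Col4a1 and Col4a2 fell by 1.09 ± 0.31 and 1.03 ± 0.22. Elastic fibre and small proteoglycan genes were 8 higher and 6 lower of 15, against 36.6% and 34.2% of all genes. Eln, elastin (chromosome 5, 134702596 to 134747254), had 0 read pairs in each day 1 library and 1354, 296 and 29 on day 6, at least 508, 121 and 13.3 times higher against the same floor. Lum, lumican, showed the same order by dose, from 3.75, 3.05 and 3.19 CPM to 566, 108 and 76, and Ngfr, a receptor of stromal progenitors, went from 1, 1 and 3 pairs to 1328, 65 and 18. These 3 genes were highest on day 6 without BMP2, the reverse of Dmp1 and Spp1. Fbn1, fibrillin, fell from 600.2, 636 and 659.8 CPM to 310.5, 97.6 and 65.2. Mmp13, the collagenase of bone, rose from 0.376, 2.01 and 2.44 to 26.8, 32.3 and 29.8 (4.73 ± 0.72, adjusted p = 0.000894), and Ctsk, the collagen-cutting cathepsin K, from 54.6, 60.1 and 58.7 to 238, 274 and 251.

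Surface genes of progenitors were 5 higher and 7 lower of 14, against 36.6% and 34.2% of all genes. Ly6a, the stem cell antigen Sca-1, fell from 79.4, 96.3 and 96.8 to 3.36, 9.66 and 7.75 CPM, Mcam by 3.68 ± 0.07, Cd34 by 2.91 ± 0.07 and Alcam by 2.80 ± 0.15. Nt5e, the nucleotidase CD73, rose from 5.16, 2.5 and 2.08 to 97.4, 105 and 21.2. Cd200, a surface glycoprotein, rose from 4, 3 and 6 read pairs to 1996, 4922 and 5798.

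Cholesterol synthesis genes fell together, 21 of 23 lower and 19 at least 2-fold, with a median of -1.70. Hmgcs1, an entry enzyme of the pathway, fell by 1.70 ± 0.16, and Idi1, which isomerises the isoprene unit, from 278, 279 and 269 CPM to 103, 44.3 and 32.9. Hsd17b7, a late enzyme, fell from 116, 123 and 129.5 to 47.1, 16.7 and 14.4. In both, the day 1 levels were alike and the day 6 level was lowest with 50 ng/ml BMP2. Ebp was the 1 member called higher (0.48 ± 0.05).

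All 19 genes of the integrated stress and amino acid response tested were called higher, 15 of them at least 2-fold, with a median of 1.61. Library size scaling and the fit with no dose term each left 18. Trib3, a pseudokinase induced by ATF4, stood at 2.67, 2.88 and 3.19 CPM on day 1 and 90.2, 135 and 159 on day 6 (5.43 ± 0.16, adjusted p = 4.48e-07). Atf3 rose from 0.296, 0.178 and 0.188 to 17.9, 18.1 and 15.8 CPM, and Slc7a11, the cystine carrier, from 0.751, 0.843 and 0.937 to 17.7, 15.5 and 16.7. The day 6 levels of the last 2 were nearly flat across BMP2 doses. Ddit3, the factor CHOP, rose by 3.08 ± 0.06, Asns, asparagine synthetase, by 2.05 ± 0.14, Atf4 itself by 1.03 ± 0.06, and Hspa5, the chaperone of the endoplasmic reticulum, by 0.41 ± 0.06.

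**Figure D3:**
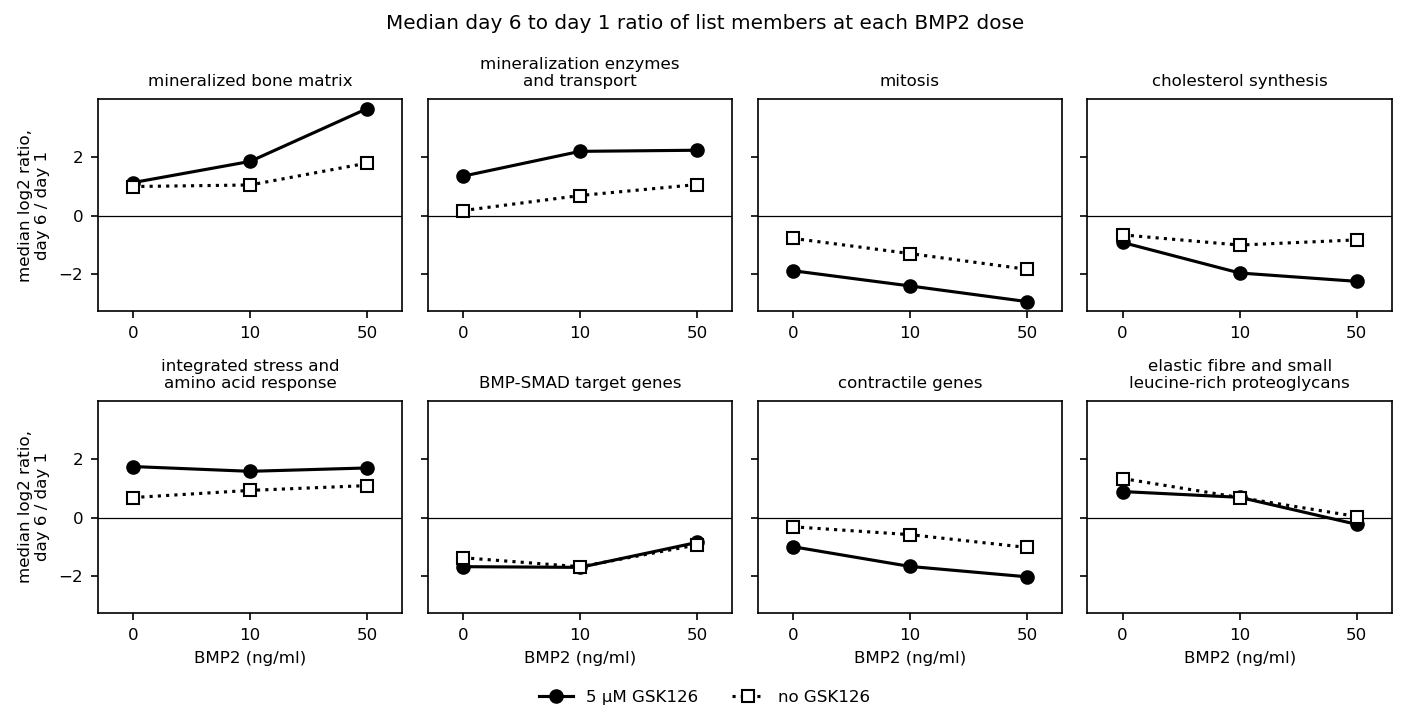
Median log2 ratio of day 6 to day 1 over the tested members of 8 gene lists at 0, 10 and 50 ng/ml BMP2, with 1 library against 1 at each point and no test. Filled circles are with GSK126 and open squares without. With GSK126 the bone matrix median went from 1.13 to 3.66 and the mitosis median from -1.88 to -2.93 as the dose increased.

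Some of these changes graded with BMP2 in the single-library ratios. The bone matrix median with GSK126 was 1.13, 1.85 and 3.66 on the log2 scale at 0, 10 and 50 ng/ml, the cholesterol median -0.91, -1.96 and -2.24, and the mitosis median -1.88, -2.40 and -2.93. The stress median was nearly level, at 1.74, 1.58 and 1.69. Elastic fibre and small proteoglycan genes went the other way, at 0.89, 0.69 and -0.23. At least 2-fold apart between the days were 2108, 2390 and 2359 genes. These ratios have no replicate check. The test that follows treated 10 and 50 ng/ml as replicates of any BMP2, so a difference between these doses counted as spread. A lack of calls in it does not show that the change between days was independent of BMP2. A test of the day effect with BMP2 against without it, among the GSK126 libraries, called 0 genes (0.0%) in either direction with edgeR, where 1045 had an unadjusted p under 0.05. DESeq2 called 165, limma-voom 0, edgeR without a low count filter 3, and a fit on the 6 GSK126 libraries alone 2. The fitted difference for Dmp1 was 3.92 ± 1.74 (adjusted p = 0.598), for Spp1 3.58 ± 0.90 (0.393) and for Lum -2.35 ± 0.28 (0.185).

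**Figure D4:**
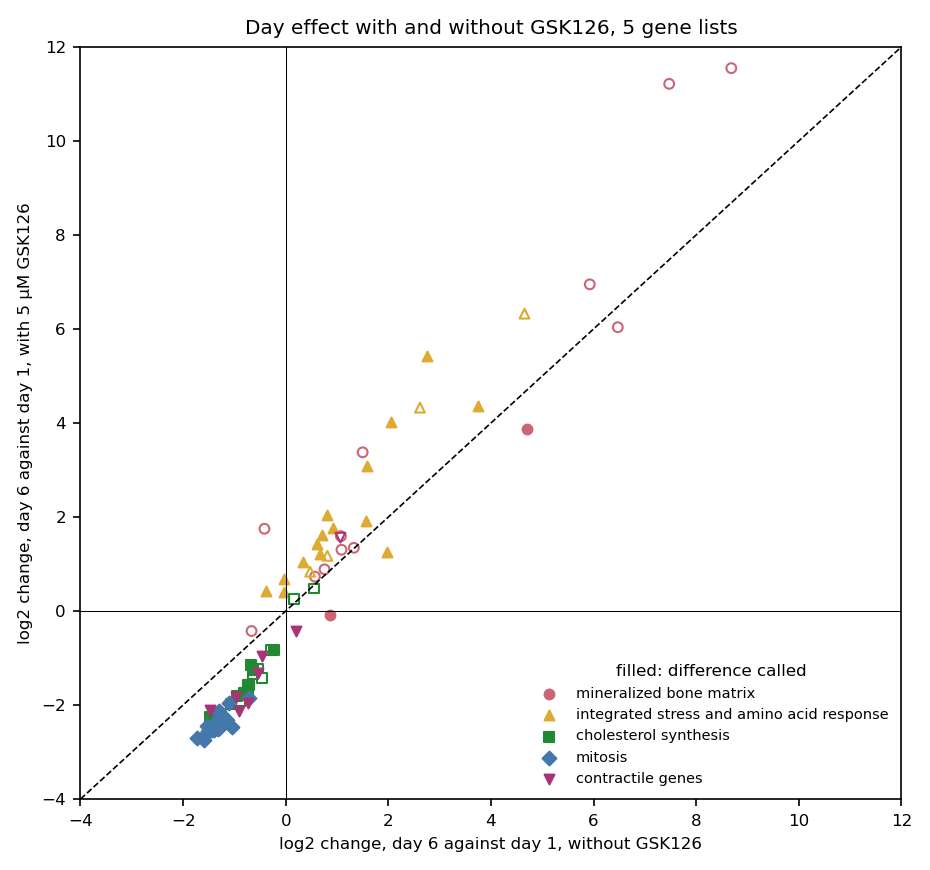
Fitted log2 change from day 1 to day 6 with GSK126 (vertical) against that without GSK126 (horizontal) for the tested members of 5 gene lists, with 1 bone matrix gene not plotted. Filled symbols are genes whose changes differed by the test, and the dashed line is equality. All 25 mitosis genes lie below the line and 18 of 19 stress genes above it.

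Most genes called with GSK126 were also called without it. The day effect without GSK126 was called at 8043 genes, and 6913 genes were called in both settings in the same direction and 73 in opposite directions. A direct test of the difference, which shares no library between its sides, called 1261 genes: 475 (3.94%) had a more positive and 786 (6.52%) a more negative change with GSK126. For 817 of these (64.8%) the 3 ratios with GSK126 lay apart from the 3 without, against 2383 of all genes tested (19.8%). The ratios come from the libraries that gave the calls, so a higher share among called genes was likely and adds no separate support. These calls depend on how BMP2 dose is modelled. With each dose as a block, 0 genes were called (1680 with unadjusted p under 0.05), and with no dose term 18 (1439 unadjusted), while DESeq2 called 1728 and limma-voom 1349 with dose terms within each day. Leaving out any 1 of the 6 day 1 libraries left 340 to 398 calls, leaving out a 10 ng/ml day 6 library 696 or 701, and leaving out another day 6 library gave 2151 to 2623. 

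Mitosis genes fell further with GSK126: all 25 were called more negative, against 6.52% of all genes, and all 25 with any 1 library left out, but 0 with dose as a block or no dose term. Mki67 fell by 2.53 ± 0.05 with GSK126 and, without it, went from 519, 531 and 505 CPM to 288, 196 and 135. The difference was -1.14 ± 0.07 (adjusted p = 0.000323), and each day 6 level with GSK126 was under that without it at the same dose, from day 1 levels that were alike. In the S phase list 17 of 29 were more negative, 4 or 5 with any 1 day 1 library left out and 26 without either 50 ng/ml day 6 library. In the cholesterol list 13 of 23 were, 4 with any 1 day 1 library left out, 6 without either 10 ng/ml day 6 library and 21 without either day 6 library at 0 ng/ml. Contractile genes were more negative in 7 of 8 cases, and in 3 or 4 with any 1 day 1 library or 10 ng/ml day 6 library left out. Without GSK126 Acta2 went from 1844, 1641 and 1544 to 1274, 1031 and 538 CPM, a difference of -1.22 ± 0.14 (adjusted p = 0.00314).

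Stress genes rose further, with 14 of 19 more positive and 1 more negative, against 3.94% and 6.52%. With any 1 day 1 library left out, 7 or 8 were more positive, and without either 10 ng/ml day 6 library 9. Trib3 rose without GSK126 from 2.67, 3.71 and 3.37 to 12.4, 30.3 and 26.9 CPM. Its day 6 levels with GSK126 were higher at every dose, and the difference was 2.68 ± 0.20 (adjusted p = 0.000603). Ddit4, which restrains mTOR, was the member that rose less with GSK126.

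In the bone matrix list 0 of 15 genes were more positive and 2, Mgp and Dcn, more negative, against 3.94% and 6.52% of all genes. Both calls were lost when any 1 day 1 library was left out. Among the 10 mineralization enzymes and transporters tested, 2 were more positive and 0 more negative. Ibsp without GSK126 went from 3.98, 23.1 and 32 CPM to 242, 1074 and 2408. Each of these day 6 levels was under its match with GSK126, yet so were the day 1 levels, and the difference of 1.02 ± 0.38 did not pass (adjusted p = 0.143). For Spp1 the values without GSK126 were 618, 588 and 518 and 272, 364 and 666, and the difference was 2.17 ± 0.62 (adjusted p = 0.0764). For Dmp1 they were 4.78, 10.3 and 13.2 and 9.56, 16.2 and 87.2, with a difference of 1.88 ± 0.61 (adjusted p = 0.103). A p that misses the threshold does not show that these changes were alike. Ostn was listed without GSK126 at 4, 1 and 7 read pairs on day 6, against 1246, 1498 and 1791 with it, and its difference had an adjusted p of 1, with 0 pairs in all 6 day 1 libraries. Enpp1 did pass: without GSK126 it went from 0.324, 0.284 and 0.299 to 0.366, 0.76 and 0.923 CPM, and the difference was 3.06 ± 0.45 (adjusted p = 0.00797).

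**Figure D5:**
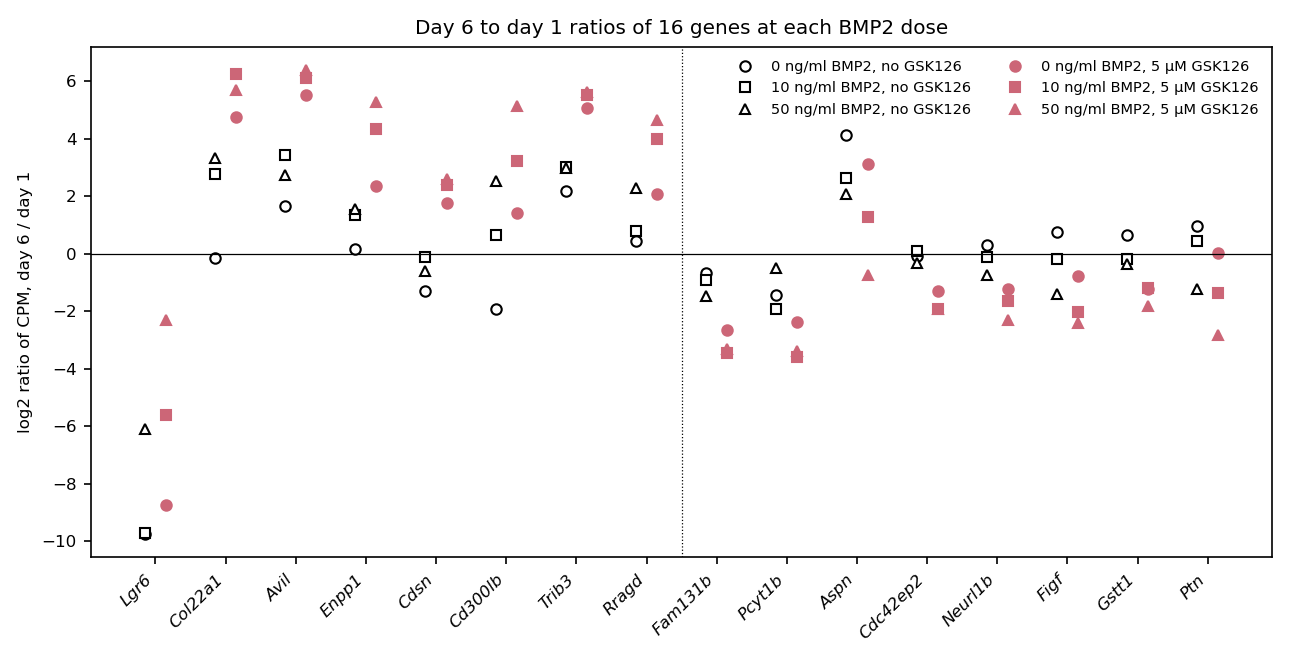
Log2 ratio of day 6 to day 1 at each BMP2 dose for the 8 genes with the most positive and the 8 with the most negative difference of day effect among genes whose difference was called and had 1 direction at all 3 doses, averaging 5 CPM or more over the 6 GSK126 libraries, with 5 µM GSK126 (red) and without (open). Circles, squares and triangles are 0, 10 and 50 ng/ml BMP2, each point 1 library against 1. With GSK126 Cdsn rose and Neurl1b fell at all 3 doses.

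Genes were ranked by the difference if it was called, had 1 direction at all 3 doses, and the gene's average level over the 6 GSK126 libraries was 5 CPM or more. Within these limits, those whose day effect was most shifted upward with GSK126 were Lgr6, Col22a1, Avil, Enpp1, Cdsn, Cd300lb, Trib3 and Rragd. Cdsn, corneodesmosin, an adhesion protein known from skin, stood with GSK126 at 159, 186 and 205 CPM on day 1 and 541, 987 and 1241 on day 6, and without it at 151, 187 and 206 and 61.7, 176 and 137. It was near the same level in both on day 1, and by day 6 it had risen at every dose with GSK126 and was lower than on day 1 at every dose without. Avil, advillin, an actin-bundling protein, went with GSK126 from 1.44, 1.67 and 1.24 to 68.2, 118 and 106 CPM and without it from 1.02, 1.4 and 0.976 to 3.27, 15.5 and 6.71. Col22a1, a collagen of tissue junctions, went from 0.316, 0.94 and 0.767 to 9.15, 74.5 and 41.4 CPM with GSK126 and from 1.34, 1.05 and 1.33 to 1.23, 7.39 and 13.8 without, and its day 1 levels were lower with GSK126. Cd300lb, a receptor of myeloid cells, went from 1.15, 0.972 and 0.972 to 3.09, 9.4 and 34.8 CPM with GSK126 and from 1.05, 0.786 and 0.638 to 0.259, 1.26 and 3.82 without. Rragd, a GTPase that links amino acids to mTOR, went from 0.889, 0.664 and 0.937 to 3.83, 10.9 and 24 CPM with GSK126 and from 0.697, 0.961 and 0.458 to 0.969, 1.68 and 2.34 without. In both, the day 6 levels with GSK126 were higher at every dose. Lgr6 fell in both, but it went from 2226, 4793 and 6845 read pairs to 2, 4 and 64 without GSK126, the first day 6 value being under the floor, and from 3326, 7477 and 8549 to 6, 123 and 1248 with it. Col2a1 likewise fell less, from 2704, 3777 and 4155 to 283, 626 and 1190 CPM with GSK126 and from 2315, 3186 and 3722 to 64.8, 100.3 and 372 without.

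By the same limits, those most shifted downward were Fam131b, Pcyt1b, Aspn, Cdc42ep2, Neurl1b, Figf, Gstt1 and Ptn. Fam131b went with GSK126 from 28.1, 27.5 and 25.7 to 4.47, 2.47 and 2.58 CPM and without it from 26.6, 26.6 and 27.2 to 16.9, 14.1 and 9.82, lower with GSK126 at every dose on day 6. Neurl1b, a ubiquitin ligase that acts on Notch ligands, went from 8.54, 8.13 and 6.58 to 3.63, 2.59 and 1.31 CPM with GSK126 and from 6.8, 5.57 and 5.38 to 8.4, 5.16 and 3.26 without, so that it was higher with GSK126 on day 1 and lower on day 6. Pcyt1b, an enzyme of phosphatidylcholine synthesis, went from 26.2, 28.2 and 27 to 5.07, 2.33 and 2.61 CPM with GSK126 and from 25.4, 24.8 and 25.4 to 9.44, 6.58 and 18.1 without. Cdc42ep2, an effector of the GTPase CDC42, went from 11.9, 10.1 and 8.2 to 4.83, 2.65 and 2.14 CPM with GSK126 and from 13.4, 9.74 and 8.45 to 12.6, 10.4 and 6.74 without. Both were lower with GSK126 at every dose on day 6. Figf, the growth factor VEGF-D, went from 10.3, 7.55 and 7.63 to 6.01, 1.85 and 1.41 CPM with GSK126 and from 9.81, 8.56 and 7.33 to 16.6, 7.55 and 2.77 without. Gstt1, a glutathione transferase, went from 8.58, 7.65 and 7.58 to 3.65, 3.37 and 2.14 CPM with GSK126 and from 8.69, 7.79 and 6.67 to 13.9, 6.87 and 5.23 without. Without GSK126 and without BMP2 both were higher on day 6 than on day 1. Aspn, asporin, a proteoglycan that restrains mineralization, rose on average with GSK126, from 53, 68.9 and 70.2 to 463, 166 and 41.8 CPM, and went from 49.5, 67.6 and 59.3 to 864, 422 and 249 without, but at 50 ng/ml with GSK126 it was below its day 1 level. Ptn, pleiotrophin, a secreted growth factor, went from 268, 228 and 214 to 272, 88.2 and 29.98 CPM with GSK126 and from 244, 217 and 197 to 481, 299 and 84.3 without. The calls of both for day under GSK126 were lost with BMP2 dose as a block (adjusted p = 0.25 for Aspn and 0.0931 for Ptn) and with no dose term (0.0867 and 0.322).

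Beyond the bone lists, the largest rises between the days under GSK126 included Slc36a2, an amino acid carrier, from 0, 2 and 0 read pairs to 270, 1636 and 2500; Atp2a3, a calcium pump of the endoplasmic reticulum, from 0.237, 0.211 and 0.256 CPM to 28.1, 58.6 and 60.9; Ppfibp2, a liprin, from 2, 9 and 5 pairs to 733, 998 and 481; and Fam167a, from 2, 3 and 0 pairs to 581, 663 and 360, whose call was lost when any 1 of the 3 day 1 GSK126 libraries was left out (adjusted p 0.0699 to 1). The largest falls included Ret, the receptor of the GDNF family, from 598, 1402 and 1427 read pairs to 54, 3 and 11; Pde2a, a phosphodiesterase, from 59.8, 58 and 54 CPM to 0.779, 1.75 and 2.72; and Siglecg, a sialic acid lectin, from 11.8, 12 and 13.1 to 0.156, 0.478 and 1.24. Nqo1, a quinone reductase of the antioxidant response, fell from 249.8, 252 and 241 to 8.81, 11.8 and 15.2 CPM, Pkp2, a desmosomal plakophilin, from 42.2, 43.9 and 42.1 to 1.96, 2.27 and 1.81, and Rgs4, which shortens G protein signals, from 14.2, 37.2 and 59.1 to 1.07, 1.51 and 2.11. Styk1, a kinase-like membrane protein, fell from 23.2, 20.1 and 18.4 to 0.601, 1.16 and 2.91. The day 1 and day 6 groups of these falls did not overlap, as for 68.7% of all genes tested. Their choice by size and by 1 direction at all 3 doses made this likely.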

How the data were processed

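Messenger RNA was sequenced from 12 libraries, 1 per condition, and the authors deposited 1 table of counts per gene with RPKM values beside them. Per the submitters' processing notes, which name tools without roles, bcl2fastq, TopHat2 2.0.6 and HTSeq were used with mm10. For strand use and annotation, the answer is not given in the sources used here, and overlapping and antisense genes cannot be told apart. All 195176 counts above 0 were even, so a read pair is 2 counts here. RPKM values, as deposited by the authors, served only to compare levels between genes per length. Library totals were 74301112 to 113744802 counts, and 3 read pairs, taken as the floor, were 0.0486 to 0.0923 CPM.

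The low count filter kept 12056 of 23358 genes, those reaching 1 CPM in 2 or more libraries. Counts were scaled by TMM and fitted with edgeR 4.0.16 (R 4.3.3) quasi-likelihood over all 12 libraries, with GSK126 and each BMP2 dose as terms of each day separately, which takes 8 coefficients and leaves 4 degrees of freedom. A gene was called at a Benjamini-Hochberg adjusted p of at most 0.05. Standard errors, given after ±, were derived from the test, as the size of the fitted change over the square root of its F statistic. Single-dose ratios used a prior count of 2 and have no test. DESeq2 1.42.0 and limma 3.58.1 (voom) were alternatives, as were other scalings, filters and dose terms and each library left out. A fit of the BMP2 difference on the 6 GSK126 libraries alone was added after seeing the data. The scripts were tested on simulated data.

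Named genes were the largest changes at a mean of at least 5 CPM (10 or fewer each way), up to 4 called members of each gene list by size, up to 8 genes in each direction for the difference between settings, up to 6 in each direction for the BMP2 difference, and a fixed panel. Other list members named were chosen after their values were seen. The comparison, gene lists and panel were chosen with earlier results of these data known. Promoters came from the RefSeq table for GRCm38.p6, matched by symbol. Some genes are not reported here, and group counts include them.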

Additional observations from a re-analysis of the deposited data

Results flagged for a closer look

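For 44 genes named in the text, H19 among the other observations included, the day effect with GSK126 differed from that without it by edgeR's quasi-likelihood test of the difference itself, at an adjusted p of at most 0.05. All values are differences of the log2 change from day 1 to day 6, with minus without GSK126. Each of these calls was lost with BMP2 dose as a block, as given above for the whole test, and this holds for every value that follows.

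Among genes with a more positive change with GSK126, those whose fitted change with it was upward had differences of Col22a1 3.47, Avil 3.38, Enpp1 3.06, Cdsn 2.91, Cd300lb 2.83, H19 2.80, Trib3 2.68, Rragd 2.46, Chac1 1.98, Ddit3 1.49, Vwf 1.31, Asns 1.25, Lyz2 1.12, Atf4 0.70, Vldlr 0.60, Ctsk 0.48 and Hspa5 0.45. Of those, Trib3, Chac1, Asns, Ddit3, Atf4, Hspa5 and Vldlr belong to the stress list. Those whose change with it was downward had differences of Lgr6 3.73 and Col2a1 1.94, so that they fell less with GSK126 than without it.

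Among genes with a more negative change, those with a downward change with GSK126 had differences of Fam131b -2.13, Pcyt1b -1.81, Cdc42ep2 -1.61, Neurl1b -1.55, Figf -1.50, Gstt1 -1.47, Ptn -1.47, Cd34 -1.35, Acta2 -1.22, Aurkb -1.17, Mki67 -1.14, Ccnb2 -1.03, Foxm1 -0.98, Hmgcs1 -0.96, Cdkn2d -0.87, Npr3 -0.73, Rrm2 -0.69, Pkp2 -0.62, Rspo2 -0.57 and Rbbp7 -0.34. Mki67, Aurkb, Ccnb2 and Foxm1 of the mitosis list are among these, with Rrm2 of the S phase list. Those with an upward change with GSK126 had differences of Aspn -1.72, Axin2 -1.30, Dcn -0.82 and Ddit4 -0.72, so that they rose less with it than without. Mgp, whose change with GSK126 did not pass the test, had a difference of -0.94.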

How the results depend on the processing

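Each condition has 1 library, so no result has a replicate check, and 4 residual degrees of freedom carry every test. The labels give no replicate numbers to pair by. The libraries are matched by BMP2 dose, and the fit with dose as a block is among the settings below. The day effect under GSK126 called 8531 genes, between 7067 (dose as a block) and 8984 under the other settings and 7020 to 9159 with 1 library left out, and at least 2-fold 2167, between 1606 and 2870 and 2090 to 2385. The split moved with scaling: by library size alone it was 2800 higher and 5581 lower. Of 158 called and named genes, 137 were called in every setting that tested them, and 21 lost their call in at least 1. Hey1 turned from -1.06 to 0.541 with no dose term (adjusted p = 0.764). The difference between the day effects, 1261 genes, was called at 0 with BMP2 dose as a block and at 18 with no dose term, and at 340 to 2623 with 1 library left out. Its 52 named genes were all lost with the block and 51 of them with no dose term. The day effect with BMP2 against without, 0 genes, was 3 without a low count filter, 165 with DESeq2, 2 on the 6 GSK126 libraries alone, and 0 to 20 with 1 library left out, where the fits without either GSK126 library at 0 ng/ml could not be made. The cause of these shifts was not tested.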

Other observations

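Hormone and prostaglandin genes of bone moved in both directions between the days under GSK126, with 5 of 15 tested called higher and 6 lower by edgeR's quasi-likelihood test, against 36.6% and 34.2% of all genes. Pth1r, the receptor for parathyroid hormone, stood at 67.7, 99.3 and 110 CPM on day 1 and 421, 763 and 693 on day 6 at 0, 10 and 50 ng/ml BMP2, a rise of 2.79 ± 0.30 (adjusted p = 0.000152). Ptgis, prostacyclin synthase, rose from 1.26, 1.00 and 1.07 CPM to 9.30, 11.1 and 10.4. Among 10 cytokine genes that act on osteoclasts, 3 were higher and 4 lower. Cxcl12, a chemokine that holds blood progenitors in the marrow, fell from 325, 342 and 338 CPM to 76.3, 118 and 70.5, and Ccl2, which attracts monocytes, from 2.53, 1.62 and 1.43 to 0.334, 0.498 and 0.258.

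In the insulin-like growth factor list 4 of 10 were higher and 4 lower. Of all genes tested, 36.6% were higher and 34.2% lower, and each count in this paragraph is to be read against these shares. The imprinted neighbours Igf2 and H19 were both highest on day 6 without BMP2: Igf2 had 7, 2 and 5 read pairs on day 1 and 636, 268 and 193 on day 6, and H19 5, 5 and 10 and then 793, 224 and 13. Of 12 Hox genes that passed the filter on low counts, 3 were higher, a smaller share than of all genes, and 0 lower. Another 21 were below the filter. Hoxa7 rose from 0.573, 0.373 and 0.290 CPM to 1.20, 1.39 and 1.13. Its fitted rise was 1.62 ± 0.22 with GSK126 and 1.69 ± 0.23 without it. Notch pathway genes were 1 higher and 4 lower of 8: Jag1, a ligand, fell from 85.3, 89.2 and 93.9 CPM to 24.4, 28.9 and 58.9, and Notch3, a receptor, rose from 15.5, 12.0 and 10.8 to 31.3, 26.3 and 30.1. Interferon-stimulated genes were 3 higher and 6 lower of 10. Oxidative phosphorylation genes were 12 higher and 3 lower of 23, a split that turned to 4 and 9 with scaling by library size alone.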
